A study of Mus musculus with 6 samples.

Results

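The genes of the ATF4 pathway and the unfolded protein response were examined in mouse hearts in which Srsf4, the gene of a splicing factor, was deleted. A list of 35 genes was drawn up by symbol from knowledge of both pathways, with earlier results of these data known. All 35 were found among the 12824 genes of the deposited heart table. Of them 34 passed the filter on low counts and were tested. The knockout hearts (KO) had the genotype SRSF4flox/flox;NKx2.5-Cre, in which Cre recombinase under the control of the cardiac transcription factor gene Nkx2-5 deletes the floxed Srsf4. Nkx2-5 is active in the heart muscle lineage. A cell of the heart keeps the gene only where Cre was made neither in it nor in a cell it descends from. Which cell types of these hearts lost the gene was not measured. The control hearts had the genotype SRSF4flox/flox without Cre, so that the floxed alleles were common to both groups and an effect of Cre itself cannot be told apart from that of the deletion. Both groups had 3 adult C57BL/6 mice aged 2 months, with 1 library of polyadenylated RNA per heart. The question is how far deletion of Srsf4 by this Cre is accompanied by a change in stress response transcripts.

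The unfolded protein response adjusts the folding capacity of the endoplasmic reticulum (ER) to its load. Its sensors in the ER membrane are IRE1 (gene Ern1), PERK (Eif2ak3) and ATF6, and IRE1 acts by splicing the mRNA of the transcription factor XBP1. PERK and related kinases phosphorylate the initiation factor eIF2, which lowers general translation and favours translation of ATF4, an activator of genes for amino acid synthesis, amino acid import and tRNA charging. In heart muscle the ER membrane is continuous with the sarcoplasmic reticulum that stores calcium, and ATF4 targets are known to rise in mitochondrial disease of the heart. Gene counts measure neither the phosphorylation of eIF2, nor the translation of Atf4, nor the spliced share of Xbp1.

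The libraries held 59810975 to 74941323 estimated counts. At these depths a count of 0 allows a level of up to 0.0400 to 0.0502 CPM (a count scaled to the total of its library, here from 3 counts and for counting error only). Levels below are CPM with library sizes scaled by TMM factors, with means given ± SD (n = 3 hearts per group throughout). The transcript of the deleted gene, Srsf4, had 10.8, 10.1 and 8.39 CPM in KO hearts 1 to 3 and 22.1, 23.5 and 23.7 CPM in control hearts 1 to 3, so the libraries followed their labels (log2 fold change -1.24, SE 0.11, edgeR adjusted p = 0.000881). The summed level of 7 cardiomyocyte markers, Myh6 and Tnnt2 among them, was 49540 to 54700 CPM in KO hearts and 52570 to 53980 CPM in control hearts. KO heart 1 stood apart from the other KO hearts. Its summed level of 7 fibroblast markers was 305 CPM against 658 and 572 CPM in KO hearts 2 and 3, and that of 6 endothelial markers was 383 CPM against 624 and 533 CPM in the same hearts. In control hearts these sums were 522 to 565 CPM and 512 to 535 CPM, and no gene of either marker list passed the test. The summed level of 6 smooth muscle and pericyte markers was 421 to 531 CPM in KO hearts against 589 to 679 CPM in control hearts, with no overlap, and 1 of the 6, Acta2, fell (log2 fold change -1.02, SE 0.13, edgeR adjusted p = 0.00547). The part of these cells in the values below was not tested. The library codes have a prefix that is the same in all KO hearts and differs from that of all control hearts. Genotype and any batch that this prefix stands for therefore cannot be told apart.

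Promoters of these genes were searched for short elements of both pathways, and some that hold them are shown to set beside the values that follow. RefSeq promoters (build GRCm38.p6) were matched by symbol for 30 of the 35 genes, as 33 promoters, and the 250 bases before the annotated start were searched on both strands. The ER stress response element, which is CCAAT, then 9 bases of any kind, then CCACG, is bound by ATF6 with NF-Y. It was found in 4 of the 33 promoters, those of Calr, Canx, Creld2 and Pdia6, and in 0.113% of all 32851 RefSeq promoters. The amino acid response element of ATF4 and C/EBP factors, searched as TGATGNAAT, was found in 2 of the 33, those of the tRNA synthetase genes Aars and Gars, and in 0.816% of all promoters. Its shorter form TGATGCAA, which was added after the other searches, was found in 5 of the 33 (Aars, Chac1, Herpud1, Slc7a11 and Vldlr), with an overlap of both forms in Aars, and in 0.791% of all promoters. TGACGTGG was found in none of the 33 and in 0.563% of all promoters, TGACGTCA in that of Ppp1r15a and in 1.55%, and CCACG, which is also the end of the ER stress element, in 18 and in 28.3%. A match of letters is not evidence of binding. The list was itself drawn up from knowledge of both pathways, so a share above that of all promoters is not a separate result. In the sequences, all 5′ to 3′ on the strand of the gene, capitals mark the ER stress element or its reverse complement in 3 of the chaperone genes, TGATGNAAT on the opposite strand in Gars, and TGATGCAA on the opposite strand in Chac1, the gene with the largest difference below.
Chac1 (chr2:119350992-119351241, plus strand): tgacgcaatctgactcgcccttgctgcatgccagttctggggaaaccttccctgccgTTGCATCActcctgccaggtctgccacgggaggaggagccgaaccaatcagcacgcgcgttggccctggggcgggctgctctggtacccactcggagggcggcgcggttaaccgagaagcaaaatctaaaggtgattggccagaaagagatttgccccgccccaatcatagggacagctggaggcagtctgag
Gars (chr6:55037751-55038000, plus strand): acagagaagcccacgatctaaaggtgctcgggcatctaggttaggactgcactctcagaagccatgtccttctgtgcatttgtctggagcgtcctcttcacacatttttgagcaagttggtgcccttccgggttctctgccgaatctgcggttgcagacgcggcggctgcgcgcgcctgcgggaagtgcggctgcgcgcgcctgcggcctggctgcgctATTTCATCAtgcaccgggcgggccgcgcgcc
Calr (chr8:84846932-84847181, minus strand): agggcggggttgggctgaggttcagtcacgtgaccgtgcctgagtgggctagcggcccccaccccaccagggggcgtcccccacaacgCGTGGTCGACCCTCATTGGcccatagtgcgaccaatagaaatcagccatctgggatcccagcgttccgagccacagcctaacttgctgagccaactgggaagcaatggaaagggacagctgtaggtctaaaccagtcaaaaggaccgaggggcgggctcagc
Canx (chr11:50325674-50325923, minus strand): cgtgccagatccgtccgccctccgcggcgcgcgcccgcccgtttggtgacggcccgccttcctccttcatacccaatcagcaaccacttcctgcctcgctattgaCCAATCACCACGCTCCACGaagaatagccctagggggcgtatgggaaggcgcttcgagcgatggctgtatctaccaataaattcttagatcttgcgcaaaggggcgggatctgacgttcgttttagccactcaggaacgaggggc
Creld2 (chr15:88819396-88819645, plus strand): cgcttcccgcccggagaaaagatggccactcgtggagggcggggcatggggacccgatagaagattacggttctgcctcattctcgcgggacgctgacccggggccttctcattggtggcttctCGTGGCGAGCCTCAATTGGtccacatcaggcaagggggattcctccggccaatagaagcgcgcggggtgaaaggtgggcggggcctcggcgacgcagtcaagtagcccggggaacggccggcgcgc

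Of the 34 tested genes, none passed edgeR's quasi-likelihood test at an adjusted p of 0.05, in either direction, where 6.03% of the 12686 genes tested did (3.29% higher and 2.74% lower in KO hearts). At an unadjusted p under 0.05 there were 6 of 34, where 21.5% of all genes passed. The KO values lay wholly above the control values in 3 genes (Canx, Nars and Vldlr) and wholly below them in 3 (Chac1, Mthfd1l and Trib3), while 13.7% and 13.5% of all genes did so, or 27.2% in either direction. The median log2 fold change was 0.04 over the 34 and -0.0032 over all genes, with 21 positive and 13 negative values. With total counts as the only scaling these medians were -0.10 and -0.14.

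The data also set a limit on what could have been missed. For 24 of the 34 genes the 95% interval of the fold change stayed within 1.5-fold in both directions, and for 30 it stayed within 2-fold. Over all tested genes the interval stayed within 1.5-fold in 66.5%. The 4 genes with intervals that reached past 2-fold were Chac1, Mthfd1l, Slc7a5 and Psat1, and each is described with its role below. These intervals are not adjusted for the number of genes. At a looser adjusted p of 0.1, 1 of the 34 passed (Mthfd1l) and 10.2% of all genes.

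**Figure D1:**
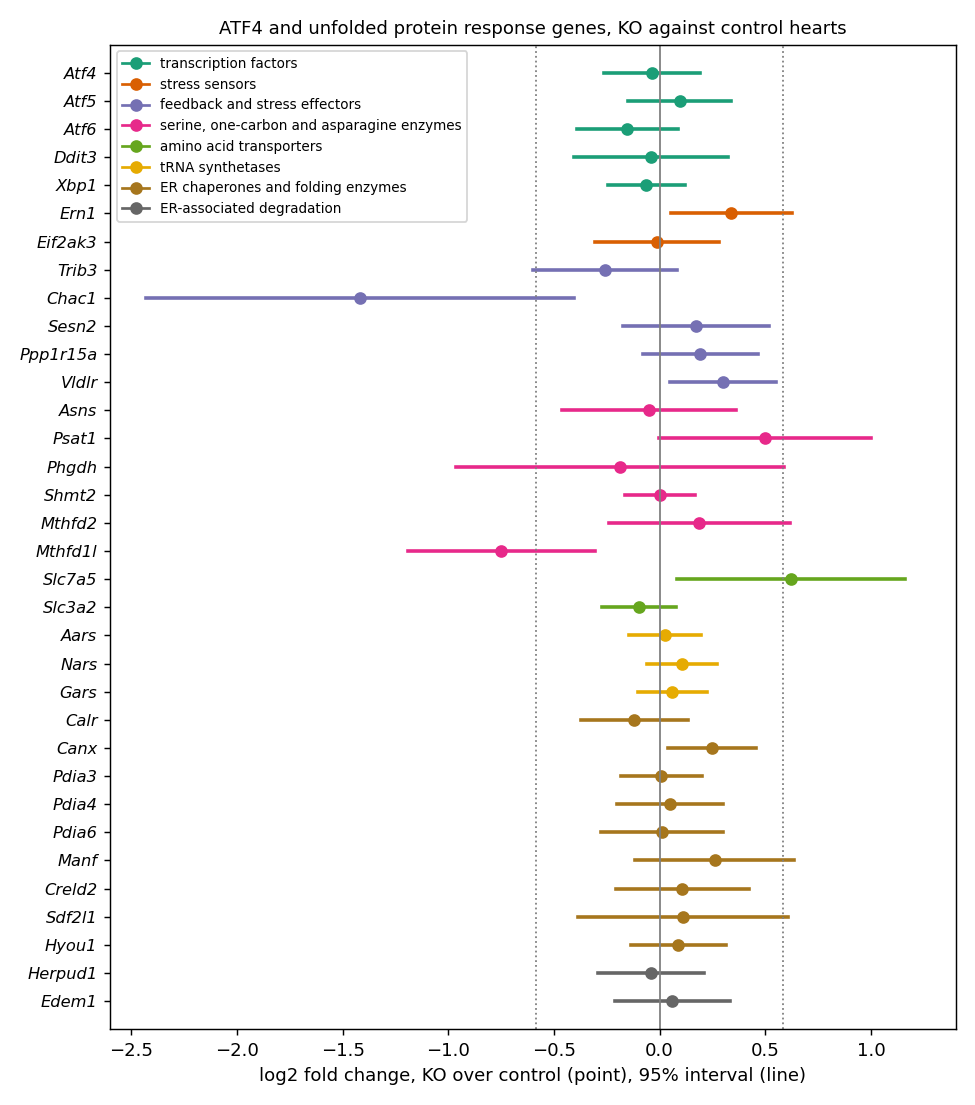
Log2 fold change of KO over control hearts (x axis; points) with 95% intervals from the edgeR fit (lines) for the 34 tested genes, coloured by role, n = 3 hearts per group. Dotted lines mark a 1.5-fold difference; most intervals lie between them and that of Chac1 is the widest, from -2.43 to -0.40.

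The transcription factor genes showed no difference beyond the spread between hearts. Atf4 (chromosome 15, 80255184 to 80257540, GRCm38), the effector of eIF2 phosphorylation, had 50.3, 42.6 and 40.9 CPM in KO hearts 1 to 3 and 45.5, 43.6 and 48.1 CPM in control hearts 1 to 3. The groups overlapped, with a log2 fold change of -0.04 (95% interval -0.26 to 0.19, edgeR adjusted p = 0.882). Xbp1, the target of IRE1, had 34.3, 31.9 and 36.4 CPM in KO hearts and 35.4, 34.8 and 36.9 CPM in control hearts, with an interval of -0.24 to 0.12. Ddit3, which encodes CHOP, the factor of late ER stress linked to cell death, had 12.8, 12.0 and 8.66 CPM in KO hearts against 11.0, 10.7 and 12.7 CPM in control hearts. KO heart 3 was the lowest of all 6 for Ddit3, and the interval was -0.40 to 0.33. Atf5, a factor of the mitochondrial and ER stress responses that is regulated in translation like Atf4, had 23.9, 26.5 and 21.9 CPM in KO hearts and 22.1, 20.9 and 24.8 CPM in control hearts. In all 4 of these genes the hearts of both groups were intermixed.

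Atf6 (chromosome 1, 170704674 to 170867771) encodes the sensor that is cut in the Golgi to release a transcription factor. It had 72.1, 78.0 and 84.8 CPM in KO hearts against 86.9, 95.7 and 78.5 CPM in control hearts. KO hearts 1 and 2 lay below every control heart, but KO heart 3 lay above control heart 3, and the gene did not pass (log2 fold change -0.15, 95% interval -0.39 to 0.08, edgeR adjusted p = 0.446). Atf6 stood in a stretch of chromosome 1 rich in called genes: within 1 Mb on either side, 12 of 34 tested neighbours passed. This share of 35.3%, against 6.03% of all genes, was the highest of the list. The next were those of Asns (2 of 10, 20%), Hyou1 (5 of 34, 14.7%) and Chac1 (5 of 37, 13.5%).

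The sensor kinases gave different pictures. Eif2ak3, the gene for PERK, had 5.26, 6.59 and 6.53 CPM in KO hearts and 5.85, 6.78 and 5.93 CPM in control hearts, with an interval of -0.31 to 0.28. Ern1 (chromosome 11, 106394650 to 106487852), the gene for IRE1, had 9.84, 11.9 and 11.2 CPM in KO hearts and 8.15, 9.94 and 7.92 CPM in control hearts. KO heart 1 was just below control heart 2, so the groups overlapped, and the log2 fold change of 0.34 with an SE of 0.12 (95% interval 0.05 to 0.63) did not pass (edgeR adjusted p = 0.163). Without KO heart 1, where 22.8% of all genes passed, Ern1 passed with a log2 fold change of 0.41 (edgeR adjusted p = 0.0299).

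Among the stress effectors Chac1 had the largest difference of all 34 genes. Chac1 (chromosome 2, 119351229 to 119354381) encodes an enzyme that degrades glutathione and is a sensitive target of ATF4 in many cell types. It had 1.46, 0.450 and 1.32 CPM in KO hearts 1 to 3 and 4.02, 2.67 and 1.94 CPM in control hearts 1 to 3. Every KO heart was below every control heart, but the values ranged widely within both groups. The level was 2.67-fold lower, at 1.08 ± 0.548 CPM in KO hearts and 2.88 ± 1.05 CPM in control hearts (log2 fold change -1.42, SE 0.43, edgeR adjusted p = 0.111). In the authors' deposited table, where 6.43% of genes have an adjusted p under 0.05, Chac1 was the 1 gene of the 35 to do so, with a log2 fold change of -1.42 and an adjusted p of 0.00225. DESeq2, which called 11.6% of all genes, also called Chac1 (adjusted p = 0.0136). In whole hearts, fewer cells of a type and less RNA per cell cannot be told apart, for this gene and for those that follow.

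The other effectors differed less. Trib3, a pseudokinase that restrains ATF4 and AKT, had 1.60, 1.97 and 1.65 CPM in KO hearts and 2.05, 2.04 and 2.15 CPM in control hearts. The groups did not overlap, yet the gap between KO heart 2 and the control hearts was small, and the gene did not pass (log2 fold change -0.26, SE 0.15, edgeR adjusted p = 0.36). Ppp1r15a, which encodes the phosphatase subunit GADD34 that reverses eIF2 phosphorylation, had 19.9, 15.9 and 15.2 CPM in KO hearts against 15.2, 14.1 and 15.3 CPM in control hearts. Sesn2, which encodes a leucine sensor upstream of mTORC1, had 3.90, 3.15 and 3.12 CPM in KO hearts against 2.62, 3.18 and 3.25 CPM in control hearts. In both, KO heart 1 was the highest of all 6 and the other KO hearts lay among or near the control hearts. Vldlr (chromosome 19, 27216484 to 27254231), a lipoprotein receptor that ATF4 is known to induce in other tissues and that takes up triglyceride-rich particles in the heart, had 321, 329 and 333 CPM in KO hearts and 264, 301 and 233 CPM in control hearts. All KO hearts were higher and close to each other, with a log2 fold change of 0.30 with an SE of 0.11 (edgeR adjusted p = 0.159) that did not pass.

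The enzymes of serine, one-carbon and asparagine metabolism are the core of the ATF4 programme, and most of them were at a low level in these hearts. Mthfd1l (chromosome 10, 3973118 to 4167081), a mitochondrial enzyme that releases formate, came closest to the threshold of the 34 genes. It had 0.816, 0.900 and 0.757 CPM in KO hearts 1 to 3 and 1.57, 1.43 and 1.15 CPM in control hearts 1 to 3. Every KO heart was below every control heart, and the level was 1.68-fold lower (log2 fold change -0.75, SE 0.19, 95% interval -1.19 to -0.31, edgeR adjusted p = 0.0653). Mthfd1l passed with DESeq2 (adjusted p = 0.0353), with total counts as the only scaling (edgeR adjusted p = 0.0318) and without KO heart 1 (edgeR adjusted p = 0.0382). With DESeq2 11.6% of all genes passed, with total counts 9.17% and without KO heart 1 22.8%.

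Psat1 (chromosome 19, 15904678 to 15947337), the aminotransferase of serine synthesis, had 1.88, 3.06 and 2.61 CPM in KO hearts against 1.48, 1.87 and 1.99 CPM in control hearts. KO hearts 2 and 3 were above every control heart and KO heart 1 was among them, and the log2 fold change of 0.50 with an SE of 0.22 (edgeR adjusted p = 0.235) did not pass. A near-identical pseudogene of Psat1 was found, so its counts can be shared. Phgdh, the first enzyme of serine synthesis, had 0.530 to 1.02 CPM in KO hearts and 0.629 to 1.15 CPM in control hearts. Its value is uncertain, because 18 other annotated genes carry near-identical sequence. The mitochondrial enzymes Shmt2 and Mthfd2 and the asparagine synthetase Asns had log2 fold changes of 0.0020, 0.19 and -0.05. Shmt2 averaged 30.1 ± 1.30 CPM in KO hearts against 30.0 ± 0.544 CPM in control hearts (SD, n = 3 each), and its interval was the narrow range of -0.16 to 0.17.

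Amino acid transporters include LAT1, its partner chain CD98 and the cystine carrier xCT. Slc7a5 (chromosome 8, 121881150 to 121907694), the gene for LAT1, had 2.55, 4.76 and 3.89 CPM in KO hearts 1 to 3 and 2.73, 2.34 and 2.18 CPM in control hearts 1 to 3. KO hearts 2 and 3 were above every control heart while KO heart 1 was among them, so the log2 fold change of 0.62 with an SE of 0.23 (edgeR adjusted p = 0.176) did not pass. The order of the KO hearts, with heart 1 lowest and heart 2 highest, was that of the summed fibroblast and endothelial markers given above. It was the order of 8 of the 34 genes (Ern1, Eif2ak3, Trib3, Asns, Psat1, Phgdh, Slc7a5 and Nars), or 23.5%, and of 22.3% of all genes. Slc3a2, the gene for CD98, had 22.4, 21.4 and 21.1 CPM in KO hearts and 24.5, 22.3 and 22.7 CPM in control hearts, an interval of -0.27 to 0.08. Slc7a11, the gene for xCT, had 3, 3 and 3 counts in KO hearts and 2, 4 and 1 counts in control hearts. That is at or close to the 3 counts that a count of 0 allows. The filter on low counts removed Slc7a11, so it was not tested. Near-identical sequence was found in 11 other annotated genes for Slc7a11 and in Gm27896 for Slc3a2, so counts of both can be shared.

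**Figure D2:**
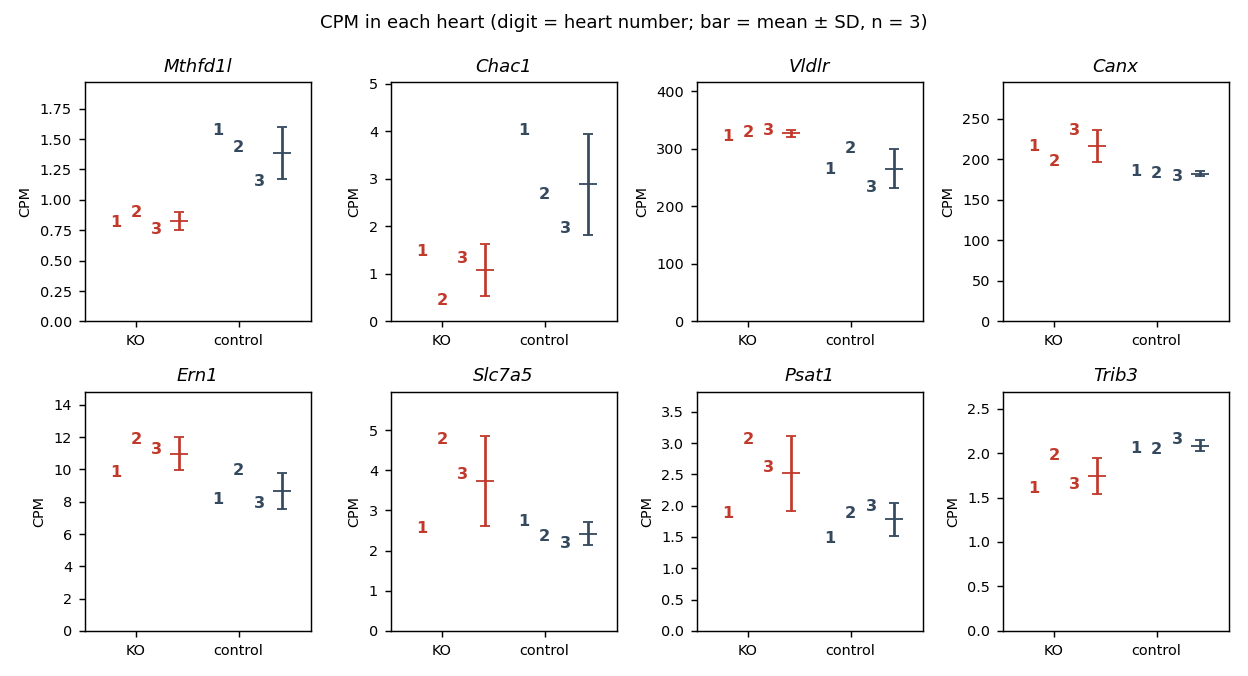
CPM in each heart (y axis, from 0) for the 8 genes with the smallest p, in KO (red, left) and control hearts (dark, right); digits are heart numbers and bars the mean ± SD of 3 hearts. Chac1, Mthfd1l and Trib3 were lower and Vldlr and Canx higher in every KO heart, while KO heart 1 lay within the control range for Ern1, Slc7a5 and Psat1.

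The tRNA synthetase genes of the list were among the most tightly measured. Nars, for asparagine, had 53.7, 57.9 and 57.6 CPM in KO hearts and 53.6, 53.1 and 50.4 CPM in control hearts. KO heart 1 exceeded control heart 1 by a small margin, so the groups did not overlap, but the log2 fold change was only 0.11 (95% interval -0.06 to 0.27). Gars, for glycine, averaged 50.1 ± 1.79 CPM in KO hearts against 48.0 ± 1.75 CPM in control hearts, an interval of -0.10 to 0.22. Aars, for alanine, had an interval of -0.15 to 0.20, but its longest transcript overlaps that of Exosc6. The promoters of Gars and Aars were those with the element TGATGNAAT, and neither gene differed between the groups beyond its spread.

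The synthetase gene for threonine was measured in the same fit. Among the other genes of the pathway, Tars (chromosome 15, 11383663 to 11399658) had 33.1, 33.7 and 33.9 CPM in KO hearts 1 to 3 and 20.6, 19.9 and 19.7 CPM in control hearts 1 to 3. The groups were widely separated and tight, and Tars rose 1.67-fold (log2 fold change 0.74, SE 0.07, edgeR adjusted p = 0.000964). Its call held in each of 6 fits with a library omitted. The other 11 synthetase genes of the lists used here, the 3 above among them, had log2 fold changes of -0.11 to 0.12 and none of them passed. The 1 call among these 12 synthetases is a share of 8.33%, near the 6.03% of all genes. Synthetase genes outside these lists were not examined. No near-identical copy of Tars was found. Of its 12 tested neighbours within 1 Mb 1 passed, or 8.33%, against 6.03% of all genes.

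ER chaperones and folding enzymes retain and refold secretory proteins, and the 9 of the list include the lectins calnexin (Canx) and calreticulin (Calr), which bind calcium in the sarcoplasmic reticulum of the heart. Canx (chromosome 11, 50293961 to 50325673) had 216, 198 and 236 CPM in KO hearts 1 to 3 and 185, 183 and 179 CPM in control hearts 1 to 3. All KO hearts were higher, and the level was 1.19-fold higher without passing (log2 fold change 0.25, SE 0.09, 95% interval 0.04 to 0.46, edgeR adjusted p = 0.161). Calr had 174, 148 and 190.3 CPM in KO hearts against 187, 175 and 194 CPM in control hearts, an interval of -0.37 to 0.14. Near-identical sequence was found in Calr-ps, so counts of Calr can be shared. Calr overlapped with its control hearts and Canx did not; both promoters hold the ER stress element. Manf, a secreted factor that supports ER folding and is known to rise under ER stress in heart muscle, had 18.9, 14.3 and 22.3 CPM in KO hearts against 15.2, 14.3 and 16.9 CPM in control hearts, with KO hearts 1 and 3 above and KO heart 2 within the control range.

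The remaining 6, the disulfide isomerases Pdia3, Pdia4 and Pdia6, the chaperone cofactors Sdf2l1 and Hyou1 and the disulfide isomerase-like Creld2, had log2 fold changes of 0.0076 to 0.11. Their hearts of both groups overlapped. Pdia6 had 63.8, 52.8 and 73.1 CPM in KO hearts and 62.4, 59.1 and 66.9 CPM in control hearts, and Creld2 had 7.29, 6.94 and 7.32 CPM in KO hearts against 6.52, 5.58 and 7.89 CPM in control hearts. Of the 9 intervals, 7 lay within 1.5-fold, with Manf and Sdf2l1 the exceptions.

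The 9 chaperone genes largely shared an order of the hearts within each group. KO heart 3 was the highest KO heart in 8 of the 9 genes and KO heart 2 the lowest in 8, and both held in 7. Over all genes, KO heart 3 was highest in 28.8%, KO heart 2 lowest in 30.4%, and both held in 7.30%. Among control hearts, heart 3 was the highest in 7 of the 9 genes, against 38.9% of all genes. In the other 34 tested ER folding and degradation genes KO heart 3 was highest in 18 and KO heart 2 lowest in 14, with both in 7. These shares describe 3 hearts and genes that are not independent of each other. The summed level of 5 erythroid markers, the globin genes and Alas2, had the same order in KO hearts, with 339, 228 and 753 CPM in KO hearts 1 to 3. In control hearts 1 to 3 it was 429, 561 and 575 CPM, lowest in heart 1, while control heart 2 was the lowest in 6 of the 9 chaperone genes (38.5% of all genes). All 5 were above 0 in every heart and none passed, and their part in the chaperone values was not tested. The other cell type marker lists with values had other orders in KO hearts. Macrophage and monocyte markers summed to 119, 144 and 152 CPM in KO hearts 1 to 3, and skeletal muscle markers to 2520, 2527 and 1772 CPM.

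**Figure D3:**
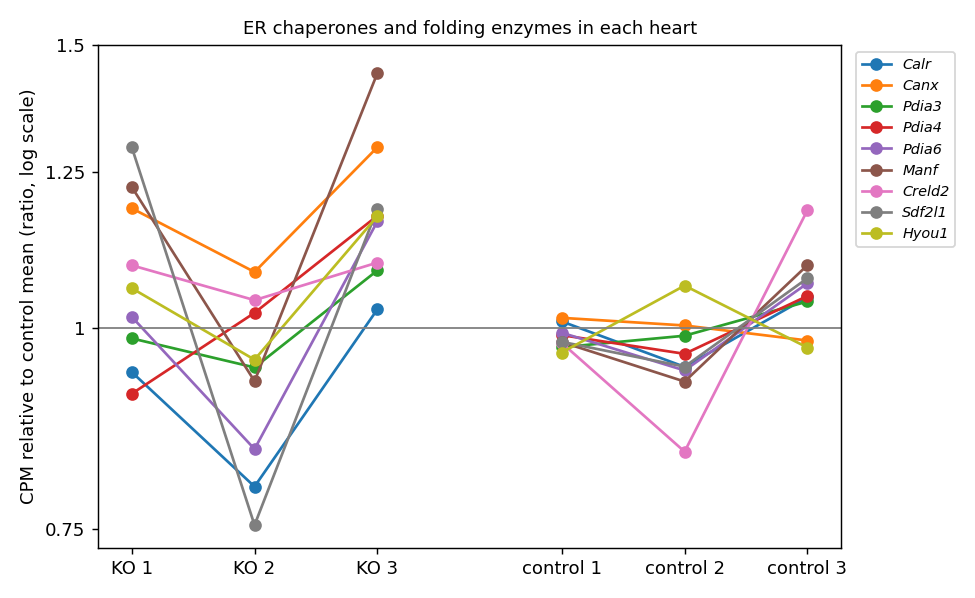
CPM of 9 ER chaperone and folding genes in each heart divided by the mean of the 3 control hearts (y axis, log scale), with one line per gene joining the hearts of a group, KO hearts on the left. Most lines dip at KO heart 2 and peak at KO heart 3, and the groups overlap around 1.

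ER-associated degradation removes misfolded proteins to the proteasome. Herpud1, a membrane protein of this complex whose promoter holds TGATGCAA, had 249.7, 229 and 215 CPM in KO hearts 1 to 3 and 263, 239 and 211 CPM in control hearts 1 to 3. Edem1, a lectin that extracts misfolded glycoproteins, had 6.68, 8.46 and 8.52 CPM in KO hearts and 7.54, 7.61 and 7.52 CPM in control hearts. Both intervals, -0.29 to 0.21 and -0.21 to 0.33, lay within 1.5-fold.

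Levels per length spanned a wide range within the list, and those of chaperone and amino acid genes overlapped. Per kilobase of annotated exon, Herpud1 was the highest of the 34 genes, at 99.1 CPM per kb in KO hearts and 102 CPM per kb in control hearts. Calr followed with 59.3 CPM per kb in KO and 64.4 in control hearts, then Canx with 46.2 in KO and 38.9 in control hearts. Vldlr, at 32.5 CPM per kb in KO and 26.4 in control hearts, and Pdia3, at 31.6 in KO and 31.4 in control hearts, changed places between the groups. Atf4 had 18.9 CPM per kb in KO and 19.4 in control hearts. At the other end stood Mthfd1l, Phgdh, Mthfd2, Asns and Psat1, which ranged from 0.186 (Mthfd1l) to 0.591 CPM per kb (Psat1) in KO hearts and from 0.278 (Mthfd2) to 0.419 CPM per kb (Psat1) in control hearts. These levels are not corrected for which transcript of a gene was used.

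The other genes of both pathways were taken from 4 lists of 96 genes in all, of which 92 were tested. Of these 92, 5 rose and 1 fell (edgeR adjusted p under 0.05), where 6.03% of all genes passed, and the median log2 fold change was 0.04. Of 30 further ATF4 pathway genes 3 rose and 1 fell, with a median of -0.12. Of 34 ER folding and degradation genes 1 rose and none fell (median 0.08), of 17 sensors and signalling genes 1 rose and none fell (median 0.0099), and of 11 mitochondrial chaperones and proteases none passed (median 0.11). At an unadjusted p under 0.05 there were 7 of 30, 7 of 34, 4 of 17 and 2 of 11 in these lists, where 21.5% of all genes passed.

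Beside Tars, the gene for the eIF2 kinase PKR, Eif2ak2, rose 1.82-fold (log2 fold change 0.86, SE 0.10, edgeR adjusted p = 0.00269). It had 12.2, 12.8 and 14.6 CPM in KO hearts 1 to 3 and 6.98, 7.42 and 7.48 CPM in control hearts 1 to 3, with no overlap, and its call held whichever of the 6 libraries was omitted. PKR responds to double-stranded RNA and is also an interferon-induced gene. Stc2, a secreted glycoprotein induced through PERK, fell 1.56-fold, with 9.73, 9.03 and 9.03 CPM in KO hearts and 14.6, 13.0 and 15.8 CPM in control hearts (edgeR adjusted p = 0.0103), and was called in 4 of the 6 fits. It lost its call without control heart 1 (edgeR adjusted p = 0.066) and without control heart 3 (0.0543).

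The other 3 calls lay close to the threshold. Psph, the phosphatase of the last step of serine synthesis, rose 1.48-fold, with 5.44, 6.10 and 6.15 CPM in KO hearts and 3.84, 3.60 and 4.48 CPM in control hearts (edgeR adjusted p = 0.0368). Dnajc10, an ER reductase that aids degradation, rose 1.35-fold, with 42.2, 47.3 and 51.8 CPM in KO hearts and 35.4, 36.5 and 32.9 CPM in control hearts (edgeR adjusted p = 0.0432). Gdf15, a stress cytokine, had 1.06, 1.09 and 2.00 CPM in KO hearts and 0.606, 0.299 and 0.446 CPM in control hearts (edgeR adjusted p = 0.0446). In all 3 the groups were separate, but each kept its call only without KO heart 1 and lost it without any other library, with edgeR adjusted p of 0.0584 to 0.175 for Psph, 0.104 to 0.163 for Dnajc10 and 0.0646 to 0.159 for Gdf15. The log2 fold changes without a library stayed at 0.51 to 0.66 for Psph (0.57 with all), 0.36 to 0.51 for Dnajc10 (0.43) and 1.24 to 1.89 for Gdf15 (1.60), and the count of all genes called was 288 to 491 in the fits that lost these calls, against 765 with all libraries. With total counts as the only scaling Psph (edgeR adjusted p = 0.0667) and Dnajc10 (0.0971) did not pass.

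**Figure D4:**
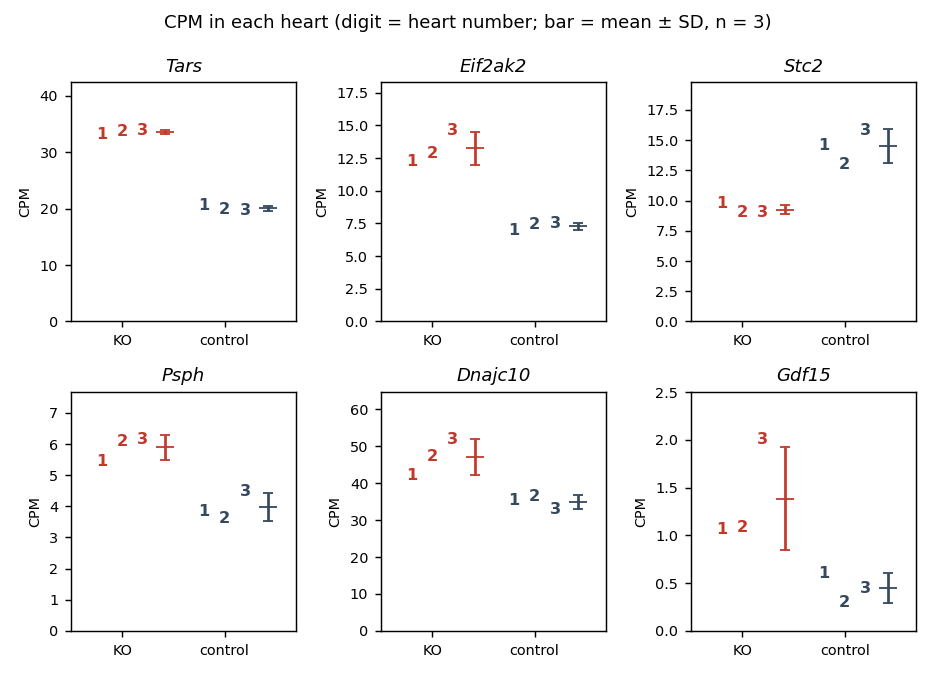
CPM in each heart (y axis, from 0) for the 6 called genes of the other pathway lists, in KO (red, left) and control hearts (dark, right); digits are heart numbers and bars the mean ± SD of 3 hearts. Tars had 33.1 to 33.9 CPM in KO hearts and 19.7 to 20.6 CPM in control hearts, and the groups are separate in all 6 genes.

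Among the fits with a library omitted, that without KO heart 1 made the most calls. Of the 34 genes, 4 then passed, where 22.8% of all genes did. Slc7a5 (log2 fold change 0.83, edgeR adjusted p = 0.00574), Psat1 (0.67, edgeR adjusted p = 0.0246) and Ern1, given above, rose, and Mthfd1l fell. The share of 11.8% was below that of all genes. Among the other lists 23 genes passed, 17 higher and 6 lower, and of the 34 ER folding and degradation genes 9 rose and none fell. These shares, 25.0% and 26.5%, were near the 22.8% of all genes, all counted in either direction. The share of all genes that rose in this fit is not given here. The 9 included Sel1l, the scaffold of the ER degradation ligase (log2 fold change 0.53, edgeR adjusted p = 0.00577), the mannosidase-like Edem3 (0.42, edgeR adjusted p = 0.0134) and the oxidase gene Ero1l (0.24, edgeR adjusted p = 0.0449), all chosen after their values were seen. The ER chaperone gene Hspa5 was also among the 9 (0.46, edgeR adjusted p = 0.0312). With all libraries Hspa5 had 447, 397 and 549 CPM in KO hearts 1 to 3 and 342, 347 and 341 CPM in control hearts 1 to 3. Its groups did not overlap, as in 27.2% of all genes, but it did not pass (log2 fold change 0.43, edgeR adjusted p = 0.0941). In the same fit 4 of 30 ATF4 pathway genes rose and 5 fell, among them Cth, the cystathionine lyase that supplies cysteine, which was the lowest (log2 fold change -1.23, edgeR adjusted p = 0.00152). No call among the 34 was made without KO heart 2 or 3, where 3.87% and 3.36% of all genes passed, or without control heart 1, 2 or 3, where 2.27%, 2.36% and 2.50% did.

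Other scalings and tests are set side by side in the plot of shares called. None of the 34 passed with RLE factors (6.02% of all genes), upper-quartile factors (5.94%), the authors' scaling factors (5.98%), limma-trend (6.03%), no filter (5.96%), a filter at 1 CPM (6.10%) or the heart number as a replicate block (3.98%). Limma voom with sample quality weights, which lowers the weight of libraries that stand apart, called 7 of the 34 and 28.0% of all genes. The 7 were Canx, Ern1, Psat1, Slc7a5 and Vldlr, all higher in KO hearts, and Chac1 and Mthfd1l, both lower.

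**Figure D5:**
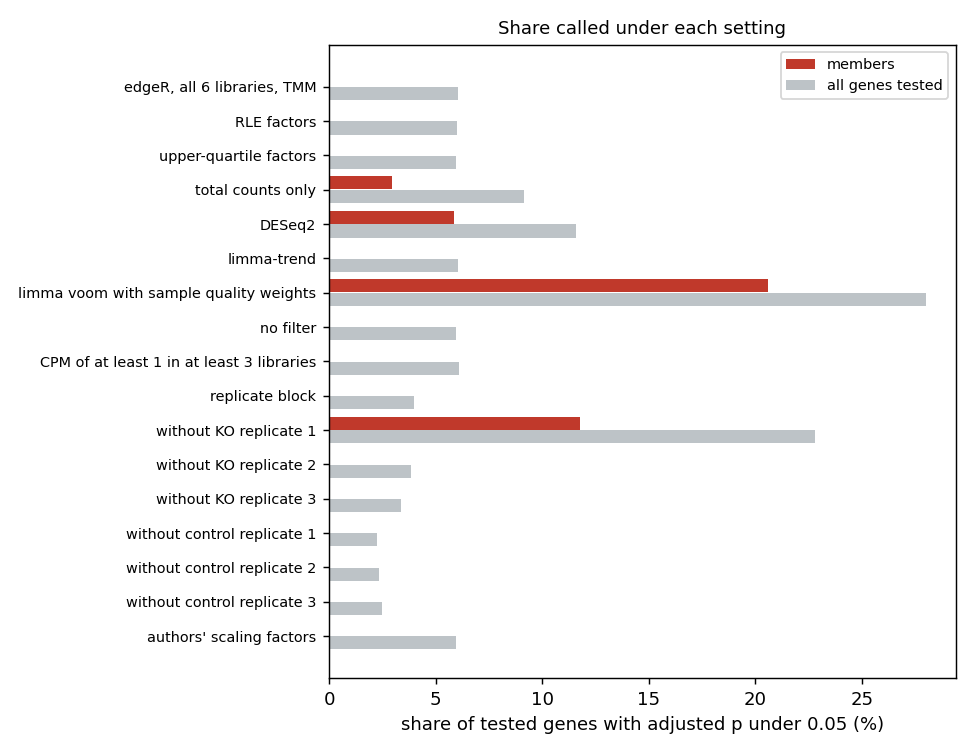
Share of tested genes with an adjusted p under 0.05 (x axis, %) among the 34 genes (red; labelled members) and among all genes tested (grey) for each scaling, test, filter and left-out library. The red bars are at 0 except for total counts only, DESeq2, limma voom with sample quality weights and the fit without KO heart 1, and there they are shorter than the grey bars.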

How the data were processed

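RNA of 3 KO and 3 control hearts was analysed from a single deposited table of 12824 genes. The submitters' processing notes name RSEM 1.17, cutadapt, Picard and edgeR with the build GRCm38. How the genes were selected, the aligner, the annotation and whether strand was used: not given in the sources used here. Deposited raw values are whole numbers, taken as the authors' estimated counts from RSEM rounded before deposit, and reads of near-identical genes are shared among them by its model. Per the file headers the authors also gave a normalized signal, which equals the counts of a library times 1 factor, and, from their own comparison, log2 fold changes (KO over control) and p-values, raw and adjusted.

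Counts were tested with edgeR 4.0.16 in R 4.3.3 (TMM factors, default filter by group, robust quasi-likelihood F test, no covariate). The filter removed 138 genes, so 12686 were tested and entered the Benjamini-Hochberg adjustment, and a gene was called at an adjusted p under 0.05. The SE was obtained by dividing the size of the log2 fold change by the square root of F, and 95% intervals use the t distribution with the test's degrees of freedom. The steps were tested on simulated data. The alternatives were other scalings, DESeq2 1.42.0, limma 3.58.1 (log2 CPM with a prior count of 2, or voom), other filters, the heart number as a block and each library left out. The authors' factors as a scaling were chosen after the data were seen. Near-identical copies were sought with blastn 2.17.0 in GENCODE M21 transcripts (at least 90% identity, 200 bases and 50% of the shorter transcript), and exon lengths are from the same annotation.

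The 35 genes and the other lists were chosen with earlier results of these data known. Values in every heart are given for the transcription factors, the sensors and the genes up to the 15 smallest p. Outside this rule they are also given for Pdia6, Creld2, Herpud1 and Edem1, and as counts for Slc7a11. Of the other lists they are given for called genes and Hspa5. Some listed genes are not named here. Each heart is from a separate mouse per the labels.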

Additional observations from a re-analysis of the deposited data

How the results depend on the processing

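The count of 0 calls among the 34 genes was also 0 with RLE, upper-quartile or the authors' factors, limma-trend, no filter, the CPM filter and the replicate block, and 0 to 4 when a library was left out, the 4 being without KO heart 1. It was 1 with total counts, 2 with DESeq2, 7 with limma voom with sample quality weights (Canx, Ern1, Psat1, Slc7a5 and Vldlr higher, Chac1 and Mthfd1l lower) and 1 at an adjusted p of 0.1 (Mthfd1l). Over all genes the count of 765 was 1163 with total counts, 1468 with DESeq2, 3547 with voom, 1294 at an adjusted p of 0.1, 505 with the replicate block and 288 to 2896 without a library. For the other pathway lists the count of 6 was 13 with DESeq2, 28 with voom, 11 at an adjusted p of 0.1, 4 with the replicate block and 2 to 23 without a library. The cause of these differences was not tested. Hearts of the same number did not deviate together (correlations over genes of -0.0639, 0.151 and -0.256 for hearts 1 to 3), so the block pairs only numbers, and under it Psph (edgeR adjusted p = 0.0796) and Dnajc10 (0.0968) lost their calls. No gene described here changed sign while called under any of these settings. SE was 0.18 to 0.33 for Mthfd1l, Phgdh, Mthfd2 and Asns, all near 1 CPM, and 0.43 for Chac1, against a median of 0.12 over the 34.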
